A study of Mus musculus with 4 samples.

Results

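The 10 genes described here belong to the loop by which the cytokine tumour necrosis factor (TNF) and the transcription factor NF-κB drive and restrain each other. They were chosen by gene symbol from a table of 31227 Ensembl gene IDs, and all 10 were found: Tnf, Nfkb1, Nfkb2, Relb, Nfkbia, Tnfaip3, Birc3, Nfkbiz, Bcl3 and Tnfaip2. All 10 passed the filter on low counts. RNA was sequenced from colonic epithelial cells of mice aged 8 to 10 weeks that had colitis from 3.5% dextran sulfate sodium (DSS) in the drinking water. DSS damages the lining of the colon, and it was given for 5 days followed by plain water until the mice were killed on day 7. The 2 libraries of the Smad4 KO group (replicates 1 and 2) came from mice with an epithelial knockout of Smad4, the partner shared by the TGF-β and BMP signal-carrying Smad proteins, and the 2 WT libraries (replicates 1 and 3) came from wild-type mice. Both groups had DSS, so the values compare genotypes in injured colon, and mice without DSS were not analysed here. The labels name neither the driver of the knockout nor the strain, and they do not say whether libraries of a group are from separate mice. The p-values therefore measure only how far these libraries differ, and part of that may be technical.

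NF-κB is a family of paired DNA-binding proteins (made from Rela, Rel, Relb, Nfkb1 and Nfkb2) that inhibitor proteins hold in the cytoplasm. When TNF or microbial products reach their receptors, a kinase complex marks the inhibitor for destruction, NF-κB enters the nucleus, and among the genes it switches on are its own inhibitors, which close the loop. In the gut epithelium the pathway controls survival under TNF, chemokine output and defence against bacteria.

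Smad4 itself had 51.5 and 41.1 CPM (counts after scaling every library to one common size) in the KO libraries, against 152 and 180 CPM in the WT libraries, and fell by 1.84 on the log2 scale (edgeR adjusted p = 0.00163), in the direction of the labels in 4 of 4 libraries. The libraries held 42577920 to 67927291 counts, and 1 count stood for 0.015 to 0.0229 CPM. Epithelial markers were high in every library, with a sum over 10 genes of 19200 and 19900 CPM in KO and 19400 and 18600 CPM in WT. Krt8 was the highest of them, at means of 5630 CPM in KO and 5960 CPM in WT. Of these 10 markers 5 rose (50.0%, against 8.83% of all tested genes), 1 fell (10.0%, against 6.4%) and 4 did not pass. The risen ones were Epcam, Krt18, Krt20, Cldn7 and Cdx2 (1.19-fold to 1.65-fold), and Krt19 had 3410 CPM in KO and 4000 CPM in WT.

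The NF-κB binding motif was looked for in the RefSeq promoter windows of the genes (GRCm38.p6, 250 bases before to 50 bases after a transcription start), on both strands, as the consensus κB motif of 10 letters. That motif is GGG, a purine, any base, A or T, a pair of pyrimidines and CC. Windows were at hand for 7 of the 10 genes, and Nfkbiz, Nfkb1 and Relb had none. The motif occurred in 4 of these 7 genes (Nfkbia, Tnfaip3, Nfkb2 and Bcl3) and in 5.14% of all 27025 genes with a window. The windows of Tnf, Tnfaip2 and Birc3 held no match to these letters. Bases further from the start and looser forms of the motif were not searched, so these genes may have sites elsewhere. The 30-base stretches below are shown because they hold the matches of the 2 classic feedback inhibitors, a pair of overlapping matches of Nfkb2, and the match of the one risen gene that has a match, with the match in capitals.
Nfkbia (chr12:55492657-55492686, minus strand, match from 29 bases before the start): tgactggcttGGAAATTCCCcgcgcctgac
Tnfaip3 upstream match (chr10:19015516-19015545, minus strand, 125 bases before the start): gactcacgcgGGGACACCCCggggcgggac
Tnfaip3 downstream match (chr10:19015403-19015432, minus strand, 12 bases before the start): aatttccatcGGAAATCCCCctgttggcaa
Nfkb2 (chr19:46304688-46304717, plus strand, overlapping matches from 39 and 38 bases before the start): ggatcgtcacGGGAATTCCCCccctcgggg
Bcl3 (chr7:19822734-19822763, minus strand, match from base 3 after the start): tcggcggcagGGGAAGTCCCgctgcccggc
For contrast, the 250 bases before the start of Tnf, the gene with no match here whose RNA differed most between genotypes after Tnfaip2, read as follows (chr17:35202008-35202257, minus strand), all in lower case.
Tnf: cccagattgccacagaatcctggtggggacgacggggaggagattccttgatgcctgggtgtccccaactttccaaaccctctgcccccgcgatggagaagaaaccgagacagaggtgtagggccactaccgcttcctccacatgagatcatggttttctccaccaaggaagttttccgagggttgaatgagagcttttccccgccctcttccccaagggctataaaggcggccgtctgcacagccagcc
The first window of Nfkb2 held a further match, GGGGCTTTCC, from 11 bases before its start. Its second window held GGAATGTCCC from 236 bases before the start and GGGACTTTCC from base 11 after it, and that last match lies in the third window too. GENCODE M21 places the 250 bases before the first start of Nfkb2 within annotated exons, and those before Tnf and Nfkbia outside any exon. Of the 250 bases before the first start of Tnfaip3, 110 lie in annotated exons, and of those before Tnfaip2, 192 do. In GENCODE M21 Tnfaip3 spans 19000910 to 19015657 on chromosome 10, so both of its matches lie inside that span. A match is a description of the letters in the window and not a measured binding site. The genes with matches are found below both among those that rose and among those that did not pass.

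Of the 10 genes, 4 rose in the KO libraries (Tnf, Tnfaip2, Nfkbiz and Bcl3), 0 fell and 6 did not pass by the quasi-likelihood test of edgeR at an adjusted p under 0.05 (Benjamini-Hochberg over 15838 tested genes). Over all tested genes 15.2% were called, 8.83% as higher in KO and 6.4% as lower. At an unadjusted p under 0.05 the count of fallen genes was also 0, and DESeq2 and limma-voom also called 4 higher and 0 lower. The median log2 fold change of the 10 genes was 0.25, against 0.01 over all tested genes. The 10 genes were chosen with earlier results of these data known, so their share and median are a description only. The increases were of unequal size, 4.0-fold for Tnf and 5.39-fold for Tnfaip2, against 1.52-fold for Nfkbiz and 1.36-fold for Bcl3.

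**Figure D1:**
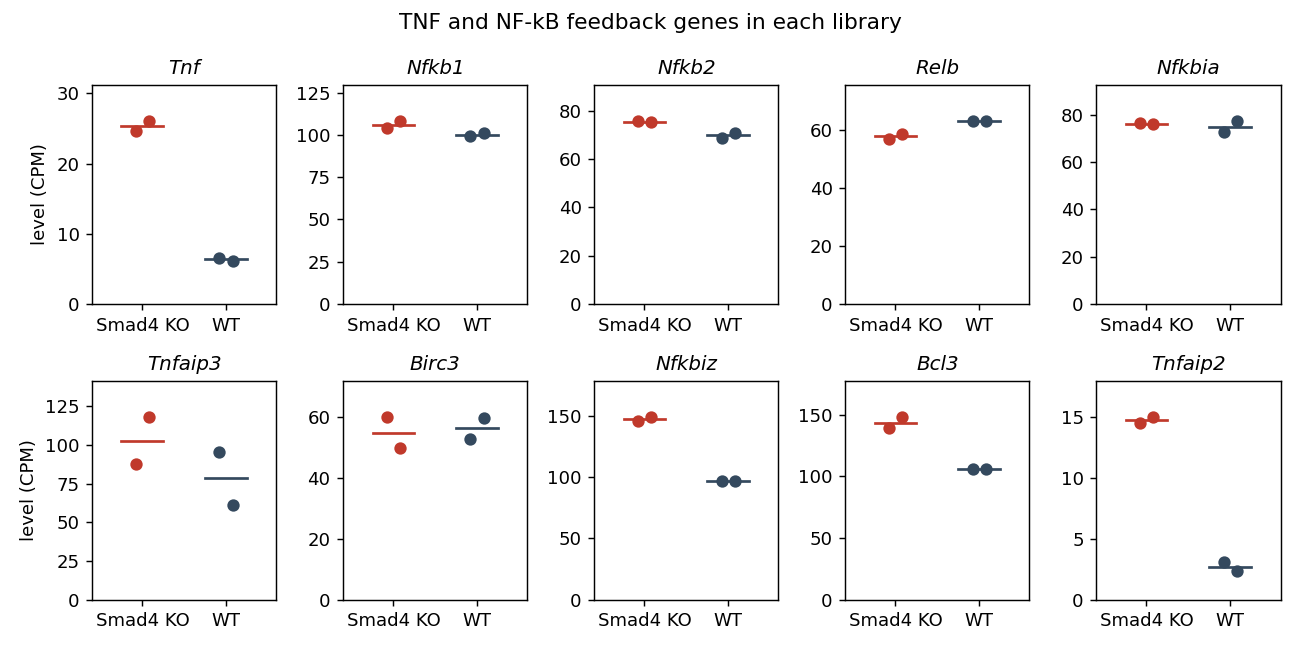
Level of each of the 10 genes in CPM (linear axis from 0, scaled for each gene) in the 2 Smad4 KO libraries (red) and the 2 WT libraries (dark blue), with a bar at the group mean. Tnf, Tnfaip2, Nfkbiz and Bcl3 sit higher in both KO libraries, while Nfkbia, Tnfaip3 and Birc3 overlap between the genotypes.

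Tnf (ENSMUSG00000024401, chromosome 17 from 35199381 to 35202007, minus strand, GENCODE M21 on GRCm38) encodes the cytokine that starts the loop. It had 24.7 and 26.0 CPM in the KO libraries, from 1487 and 1733 counts, against 6.59 and 6.08 CPM in the WT libraries, from 374 and 265 counts. Both KO libraries lay far above both WT libraries, and the libraries of a genotype differed little. The mean was 25.4 ± 0.877 CPM in KO and 6.34 ± 0.365 CPM in WT (SD, n = 2 each), a 4.0-fold increase (log2 fold change 2.0, SE 0.118, edgeR adjusted p = 0.000719). Its call held in all 11 alternative fits, with a log2 fold change of 1.94 to 2.05.

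The receptors of TNF were higher in the same libraries. Tnfrsf1a, the receptor with a death domain that most cells carry, had 166 and 166 CPM in KO against 106 and 111 CPM in WT (1.53-fold, edgeR adjusted p = 0.00392). Tnfrsf1b, the receptor that membrane-bound TNF activates most fully, had 244 and 251 CPM in KO against 90.4 and 91.8 CPM in WT (2.72-fold, edgeR adjusted p = 0.000298). Per kilobase of messenger RNA, Tnfrsf1b stood at 0.831 and 0.855 of the level of Tnfrsf1a in the KO libraries and at 0.482 and 0.468 in the WT libraries. This ratio lies within a library and does not depend on how libraries were scaled.

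Nfkb1 and Nfkb2 encode precursors of DNA-binding subunits, and the unprocessed precursors also act as inhibitors. Nfkb1 (ENSMUSG00000028163, chromosome 3) had 104 and 108 CPM in KO and 99.1 and 101 CPM in WT. Nfkb2 (ENSMUSG00000025225, chromosome 19), the precursor used by the alternative pathway, had 75.5 and 75.1 CPM in KO and 68.8 and 70.8 CPM in WT. For both genes the KO libraries lay just above the WT libraries, and neither gene passed (edgeR adjusted p = 0.459 for Nfkb1 and 0.349 for Nfkb2). The 95% interval of the fold, KO over WT, was 0.945 to 1.19 for Nfkb1 and 0.959 to 1.21 for Nfkb2. Nfkb2 shares exon sequence with Psd, which runs on the opposite strand and had 389 to 895 counts against 3088 to 5011 for Nfkb2, and without strand information reads of the 2 genes cannot be told apart.

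Relb (ENSMUSG00000002983, chromosome 7 from 19606217 to 19629438) encodes the subunit that pairs with the product of Nfkb2. It had 57.0 and 58.8 CPM in KO and 63.0 and 63.0 CPM in WT, so that both KO libraries lay below both WT libraries. The difference did not pass (log2 fold change -0.12, SE 0.0716, edgeR adjusted p = 0.327), with an interval of the fold of 0.811 to 1.04. Per kilobase, the ratio of Nfkb2 to Nfkb1 was 0.949 and 0.91 in KO and 0.91 and 0.916 in WT, and the ratio of Relb to Rela was 0.988 and 0.967 in KO and 1.16 and 1.07 in WT. Among the subunits Rel alone passed: Rel, the subunit best known from lymphocytes and myeloid cells, had 52.0 and 52.7 CPM in KO against 16.8 and 18.1 CPM in WT (3.0-fold, edgeR adjusted p = 0.000778). Rela had 70.9 and 74.8 CPM in KO and 66.9 and 72.3 CPM in WT (edgeR adjusted p = 0.64).

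Among the 10 genes, the classic feedback inhibitors Nfkbia and Tnfaip3 and the survival gene Birc3 did not pass. Nfkbia (ENSMUSG00000021025, chromosome 12 from 55489410 to 55492647, minus strand) encodes IκBα, the main inhibitor of the classical pathway. It had 76.7 and 76.0 CPM in KO and 72.9 and 77.3 CPM in WT, and the genotypes overlapped. The fold was 1.02 with an interval of 0.9 to 1.15 (edgeR adjusted p = 0.863), on 3370 to 5072 counts per library. Its log2 fold change of 0.02 (SE 0.07) was the closest to 0 among the 10 genes.

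Tnfaip3 (ENSMUSG00000019850, chromosome 10) encodes the ubiquitin-editing enzyme that shuts off signalling from TNF receptors. It had 87.6 and 118 CPM in KO and 95.8 and 61.4 CPM in WT. It varied more within each genotype than any other of the 10 genes, and the genotypes overlapped. Its fold of 1.31 had an interval of 0.851 to 2.01 (edgeR adjusted p = 0.365), which takes in both no difference and the 1.52-fold of Nfkbiz. Birc3 (ENSMUSG00000032000, chromosome 9), an inhibitor of apoptosis that attaches ubiquitin in the TNF receptor complex, had 59.9 and 49.8 CPM in KO and 52.9 and 59.7 CPM in WT. These values overlapped (fold 0.974, interval 0.787 to 1.21, edgeR adjusted p = 0.878).

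Of the genes here whose proteins act in the nucleus on NF-κB bound to DNA, Nfkbiz and Bcl3 rose and Nfkbid did not pass. Nfkbid, which encodes IκBNS, had 6.27 and 6.57 CPM in KO and 5.17 and 6.45 CPM in WT, with overlap (edgeR adjusted p = 0.673). Nfkbiz (ENSMUSG00000035356, chromosome 16 from 55811375 to 55838899, minus strand) encodes IκBζ, which is needed for a second set of NF-κB targets such as Lcn2. It had 146 and 149 CPM in KO, against 96.8 and 97.2 CPM in WT. The genotypes did not overlap, and the mean was 148 ± 2.22 CPM in KO and 97.0 ± 0.247 CPM in WT (SD, n = 2 each), a 1.52-fold increase (log2 fold change 0.61, SE 0.0621, edgeR adjusted p = 0.00373). The call held in all 11 alternative fits, with edgeR adjusted p up to 0.0451 without KO replicate 2.

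Bcl3 (ENSMUSG00000053175, chromosome 7 from 19808462 to 19822770, minus strand) encodes a nuclear IκB-like protein that works with the products of Nfkb1 and Nfkb2, and it lies on the same chromosome as Relb. It had 139 and 148 CPM in KO, against 106 and 106 CPM in WT, without overlap. It rose 1.36-fold (interval 1.21 to 1.52, log2 fold change 0.44, SE 0.0662, edgeR adjusted p = 0.0125). The call was lost without KO replicate 1 (edgeR adjusted p = 0.065) and without KO replicate 2 (0.121), at log2 fold changes of 0.48 and 0.4. Antisense gene models overlap Bcl3, but none held more than 93 counts in a library, against 4605 to 9853 for Bcl3.

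Ratios to Nfkbia within a library, per kilobase, show the unequal change without any scaling between libraries. Nfkbiz stood at 0.731 and 0.753 of the level of Nfkbia in KO and at 0.51 and 0.482 in WT. The same ratio was 1.55 and 1.66 in KO and 1.24 and 1.17 in WT for Bcl3, and 0.311 and 0.329 in KO and 0.0871 and 0.0757 in WT for Tnf. In each of these the KO libraries lay above the WT libraries. For Tnfaip3 the ratio was 0.408 and 0.554 in KO and 0.469 and 0.283 in WT, with overlap.

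Tnfaip2 (ENSMUSG00000021281, chromosome 12 from 111442469 to 111455018, plus strand) is a gene first found as induced by TNF, whose protein helps form thin membrane bridges between cells. It had 14.5 and 15.0 CPM in KO, from 871 and 999 counts, against 3.1 and 2.34 CPM in WT, from 176 and 102 counts. The genotypes stood far apart, with a mean of 14.7 ± 0.343 CPM in KO and 2.72 ± 0.54 CPM in WT (SD, n = 2 each). This 5.39-fold increase (log2 fold change 2.43, SE 0.192, edgeR adjusted p = 0.00172) was the largest of the 10 genes and held in all 11 alternative fits. An antisense model that overlaps it, Gm40578, had 12 counts at most.

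**Figure D2:**
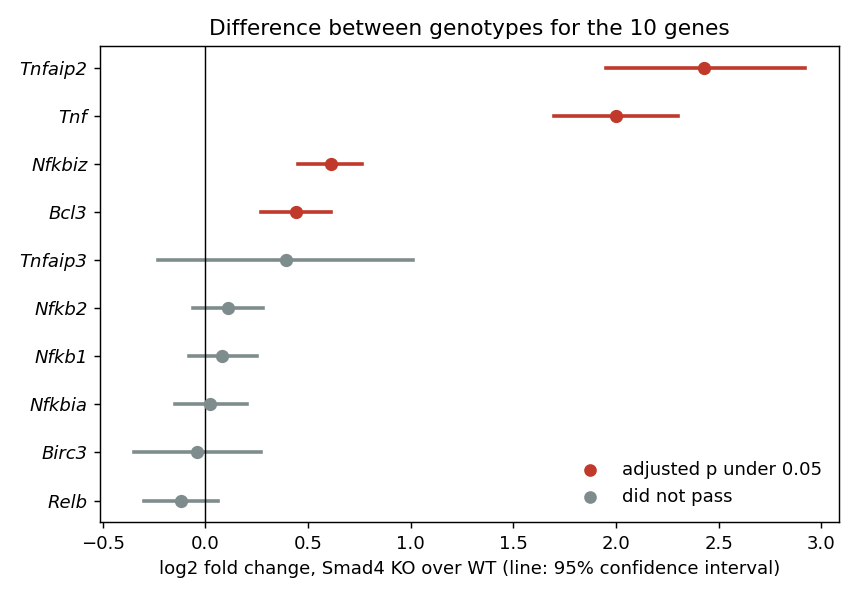
Log2 fold change of the 10 genes, Smad4 KO over WT, as points with 95% confidence intervals from the edgeR fit (lines). The 4 red genes passed at an adjusted p under 0.05, and the intervals of the 6 grey genes cross 0, that of Tnfaip3 being the widest, from -0.23 to 1.01.

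Across all 10 genes, both KO libraries lay above both WT libraries in 6 and below in 1, and 3 overlapped. Among all tested genes the KO libraries lay above in 31.0% and below in 28.4%, together 59.4%, so a lack of overlap by itself is common in these data. Levels of different genes can be compared per kilobase of the principal messenger RNA. On that scale Bcl3 was highest, with 77.6 CPM per kilobase in KO and 57.2 in WT, followed by Nfkbia with 48.4 in KO and 47.6 in WT. Nfkbiz came next in KO, at 35.9 CPM per kilobase, while in WT, at 23.6, it stood below Relb and Nfkb1. Relb, Nfkb1, Nfkb2, Tnfaip3 and Birc3 lay between 20.6 and 26.2 CPM per kilobase in KO and between 17.8 and 28.5 in WT. In KO the neighbours Relb and Nfkb1 overlapped between libraries, as did Tnfaip3 with Nfkb2 and with Birc3. In WT Nfkb2 overlapped with Birc3, and Birc3 with Tnfaip3. Tnf had 15.5 CPM per kilobase in KO and 3.87 in WT, and Tnfaip2 was lowest, with 3.92 in KO and 0.723 in WT. With the length of all annotated exons in place of the principal transcript, Nfkbia came above Bcl3 in WT (46.6 against 42.8 CPM per kilobase) and Nfkb1 moved to 8.81 in KO and 8.31 in WT. Nfkbiz then stood above Relb and Nfkb1 in WT too (19.3 CPM per kilobase, against 16.2 for Relb), so its lower place in WT depends on the length used. Tnf, at 15.5 in KO, then stood above Relb, Tnfaip3, Birc3 and Nfkb1 in KO.

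The rest of the pathway machinery, a list of 32 receptors, adaptors, kinases, subunits and inhibitors was tested whole. Of these 32 genes, 6 rose (18.8%, against 8.83% of all tested genes), 1 fell (3.12%, against 6.4%) and 25 did not pass, with a median log2 fold change of 0.14. The list was chosen with earlier results of these data known, so these shares are a description only. Besides Tnfrsf1a, Tnfrsf1b and Rel, the risen genes were Tnfrsf12a, the receptor of the TNF relative TWEAK, Cd40 and Traf6. Tnfrsf12a had 17.3 and 16.7 CPM in KO against 6.93 and 6.35 CPM in WT (2.55-fold, edgeR adjusted p = 0.00286). Cd40, a receptor typical of antigen-presenting cells, had 1.33 and 2.38 CPM in KO and no count in either WT library, so it was at least 62.1-fold higher (floor of 3 counts over the group, edgeR adjusted p = 0.00968). Its call was lost without KO replicate 2 (edgeR adjusted p = 0.0765). Traf6, an adaptor of interleukin 1 and Toll-like receptors, had 53.9 and 48.6 CPM in KO against 38.1 and 38.9 CPM in WT (1.33-fold, edgeR adjusted p = 0.0418). It lost its call without any one library (edgeR adjusted p = 0.0717 to 0.258) and with library totals only (0.0609).

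The only fall on that list was Tnip1, whose protein binds the enzyme made by Tnfaip3 and helps it shut off signalling. Tnip1 had 73.2 and 78.5 CPM in KO against 152 and 141 CPM in WT, which is 1.94-fold lower in KO (edgeR adjusted p = 0.00187). Both KO libraries were well under both WT libraries, and the call held in each of the 4 fits without a library. The kinases that mark the inhibitor did not pass, with Chuk at 96.9 CPM in KO and 95.3 CPM in WT and Ikbkb at 74.8 CPM in KO and 74.5 CPM in WT (edgeR adjusted p = 0.859 and 0.979). Of the most abundant genes on the list, the lymphotoxin receptor Ltbr had 164 and 170 CPM in KO and 162 and 167 CPM in WT (edgeR adjusted p = 0.861). Rbck1, part of the complex that builds linear ubiquitin chains, had 125 and 148 CPM in KO and 150 and 146 CPM in WT (edgeR adjusted p = 0.488).

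Other ligands of the TNF superfamily moved in both directions, and 8 of 12 had enough counts for a test. Tnfsf13b (BAFF), a survival factor of B cells, had 10.5 and 13.5 CPM in KO against 4.04 and 4.89 CPM in WT (2.69-fold, edgeR adjusted p = 0.0104). Tnfsf9, the ligand of a costimulatory receptor on T cells, had 2.13 and 2.73 CPM in KO against 0.793 and 0.917 CPM in WT (2.84-fold, edgeR adjusted p = 0.0426). Tnfsf10 (TRAIL), which can trigger apoptosis, had 49.8 and 50.0 CPM in KO against 69.6 and 74.2 CPM in WT (1.44-fold lower in KO, edgeR adjusted p = 0.0107). Each of these 3 calls was lost in at least 1 fit without a library (Tnfsf13b without KO replicate 2, edgeR adjusted p = 0.0636; Tnfsf10 without either KO library, up to 0.101; Tnfsf9 without any one library, up to 0.258). Tnfsf13, Tnfsf15, Tnfsf12, Ltb and Fasl did not pass. Tnfsf13 had 19.5 CPM in KO and 24.7 CPM in WT, and the other 4 had means under 4 CPM in either genotype. Ltb also stands on the list of targets.

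A further list held NF-κB target genes other than the 10. Like the 10 genes and the other lists, it was chosen with earlier results of these data known, so its share is a description only. Of 32 listed, 31 were tested, and 16 rose (51.6%, against 8.83% of all tested genes), 1 fell (3.23%, against 6.4%) and 14 did not pass, with a median log2 fold change of 1.2. Without KO replicate 1, 10 rose. The largest folds among the risen genes were those of Cxcl5 (44.9 CPM in KO and 2.7 CPM in WT), which draws neutrophils, and Nos2 (670 CPM in KO and 87.6 CPM in WT), the inducible nitric oxide synthase. Saa3, Cxcl2, Ptgs2, Il1b and Lcn2 rose 4.26-fold to 7.31-fold, with Il1b at 58.9 and 58.3 CPM in KO against 12.9 and 11.8 CPM in WT. Cxcl10, Cxcl1, Ccl5, Plau, Icam1, Ier3 and Zc3h12a rose 2.01-fold to 5.18-fold. Zc3h12a encodes a ribonuclease that degrades inflammatory messenger RNAs and is itself a feedback gene. It had 145 and 142 CPM in KO against 63.4 and 61.7 CPM in WT (2.3-fold, edgeR adjusted p = 0.000609).

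Cflar, which blocks the death signal of TNF receptors, and the complement gene C3 rose 1.36-fold and 1.34-fold (edgeR adjusted p = 0.0128 and 0.0135). The calls of Cflar, Cxcl1, Ccl5, Lcn2, C3 and Plau were lost in at least 1 fit without a library, and the other 10 kept theirs in all 4. Pigr, the receptor that carries antibodies across the epithelium, had 4710 and 4680 CPM in KO against 6140 and 5980 CPM in WT (1.29-fold lower in KO, edgeR adjusted p = 0.00274), a call lost without KO replicate 1 (0.0548). Irf1 and Junb, which are abundant, did not pass. Irf1 had 170 and 349 CPM in KO and 261 and 256 CPM in WT, with the KO libraries on either side of WT, while Junb had 193 and 196 CPM in KO and 166 and 174 CPM in WT (edgeR adjusted p = 0.994 and 0.0974).

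**Figure D3:**
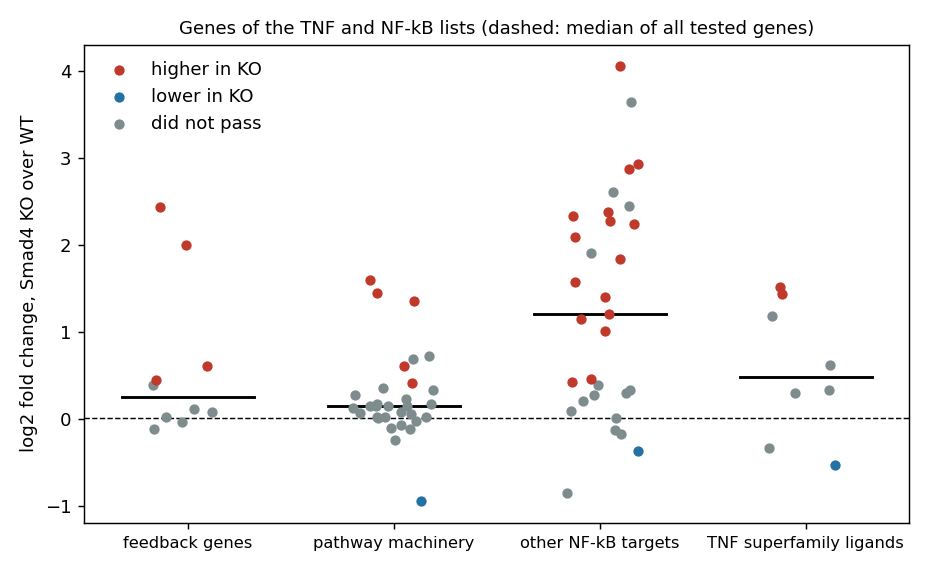
Log2 fold change, Smad4 KO over WT, of each tested gene of the 10 feedback genes, the pathway machinery, other NF-κB targets and TNF superfamily ligands, with a bar at each list's median and a dashed line at the median of all tested genes (0.01). Points are red where higher, blue where lower and grey where the test was not passed, the medians are 0.25, 0.14, 1.2 and 0.48, and Cd40, with no WT count, is not drawn.

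Genes on these lists whose pattern over the 4 libraries was most like that of a feedback gene were found by the root mean square difference of centred log2(CPM + 0.5) among 63 tested genes, as a description. Nfkbiz was nearest to Tnfrsf1a (0.0244), Bcl3 to C3 (0.0247), Nfkbia to Ltbr (0.028), and Nfkb1 and Nfkb2 to Rnf31 (0.016 and 0.0396). Tnf was nearest to Ptgs2 (0.143) and Tnfaip2 to Cxcl2 (0.0589). Relb was nearest to Tab1 (0.0594), Birc3 to Sod2 (0.0849) and Tnfaip3 to Csf3 (0.154), a gene under 1 CPM in every library.

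Tnf, Tnfaip2, Rel, Cd40, Il1b and several of the chemokines are also genes of leukocytes, and markers of leukocytes differed between the same libraries. Of 10 neutrophil markers 7 were tested, and 6 rose (85.7%, against 8.83% of all tested genes): S100a8, S100a9, Csf3r, Cxcr2, Ly6g and Mmp8. Their sum over the list was 442 and 431 CPM in KO and 130 and 103 CPM in WT, and 112 and 112 CPM in KO against 13.6 and 9.75 CPM in WT without Ly6g, the highest of them. Mpo, Elane and Camp, granule genes of immature neutrophils, had no count in any library. Of 12 macrophage and monocyte markers 4 rose (33.3%, against 8.83% of all tested genes): Lyz2, Csf1r, Itgam and Ly6c2. The whole list summed to 199 and 191 CPM in KO and 180 and 198 CPM in WT, with overlap. Cd14, the highest, was lower in both KO libraries, at means of 135 CPM in KO and 170 CPM in WT. Mrc1 was also lower in both, at 2.69 CPM in KO and 4.32 CPM in WT, and neither gene passed. Without Cd14 the other 11 summed to 62.0 and 57.8 CPM in KO and to 21.1 and 17.1 CPM in WT. The macrophage marker Adgre1 was at 0.647 CPM in KO and 0.217 CPM in WT.

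Tnf rose 4.0-fold, close to Lyz2 (4.02-fold) and Csf3r (3.56-fold). Of the other risen neutrophil, macrophage and monocyte markers, Csf1r and Ly6g rose less (2.52-fold and 3.09-fold). Cxcr2, Ly6c2, Itgam, S100a9 and S100a8 rose more (6.72-fold to 15.9-fold), as did Mmp8, which had 4 counts at most in a WT library. Per kilobase, Tnf stood at 1.06 and 1.1 of the level of Lyz2 in KO and at 0.95 and 1.3 in WT, and at 3.71 and 4.43 of that of Csf3r in KO and 3.97 and 3.27 in WT. Relative to S100a9 it was at 0.181 and 0.193 in KO and at 0.47 and 0.571 in WT. Tnfaip2 stood at 0.27 and 0.277 of the level of Lyz2 in KO and at 0.195 and 0.218 in WT, and at 0.947 and 1.11 of that of Csf3r in KO and 0.814 and 0.549 in WT. Relative to S100a9 it was at 0.0461 and 0.0484 in KO and at 0.0964 and 0.0957 in WT. The ratios of both genes to S100a9 were thus lower in both KO libraries, while those of Tnfaip2 to the other markers were higher. These 3 markers were chosen after their values were seen, and all 3 are among those that rose. Lyz2 and Csf3r are the risen markers whose folds lie closest to that of Tnf. No ratio was taken to markers that did not pass, such as Cd14 and Mrc1, which were lower in both KO libraries. The part of leukocytes in the higher Tnf and Tnfaip2 was not tested, and in bulk RNA more cells of a type and more RNA per cell cannot be told apart.

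Of the other cell types, 1 of 9 tested T cell markers rose (11.1%, near the 8.83% of all tested genes). It was Cd4, with 0.399 and 0.42 CPM in KO and no count in WT (at least 13.7-fold higher, floor of 3 counts over the group). The T cell list summed to 14.7 and 15.0 CPM in KO and 6.88 and 7.89 CPM in WT, and Lck was its highest gene. In 8 of the 9 tested T cell markers both KO libraries lay above both WT libraries, against 31.0% of all tested genes. Of 9 tested fibroblast markers Fbln1 and Dcn rose (22.2%, against 8.83% of all tested genes). The fibroblast list summed to 75.0 and 84.4 CPM in KO and 44.8 and 50.1 CPM in WT. The 4 tested B and plasma cell markers and the 6 tested endothelial markers did not pass, with Igkc and Vwf the highest of each and sums of at most 8.72 CPM in any library. Both KO libraries lay above both WT libraries in 3 of these 4 and in 3 of these 6 genes. The B and plasma cell list summed to 4.92 and 5.2 CPM in KO and 2.35 and 3.74 CPM in WT. The mitochondrial share of counts was 5.4% and 5.22% in KO and 4.51% and 4.16% in WT, and the nuclear RNA Malat1 took 0.0305% and 0.0265% in KO and 0.0605% and 0.0813% in WT. The part of these differences in the results was not tested.

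**Figure D4:**
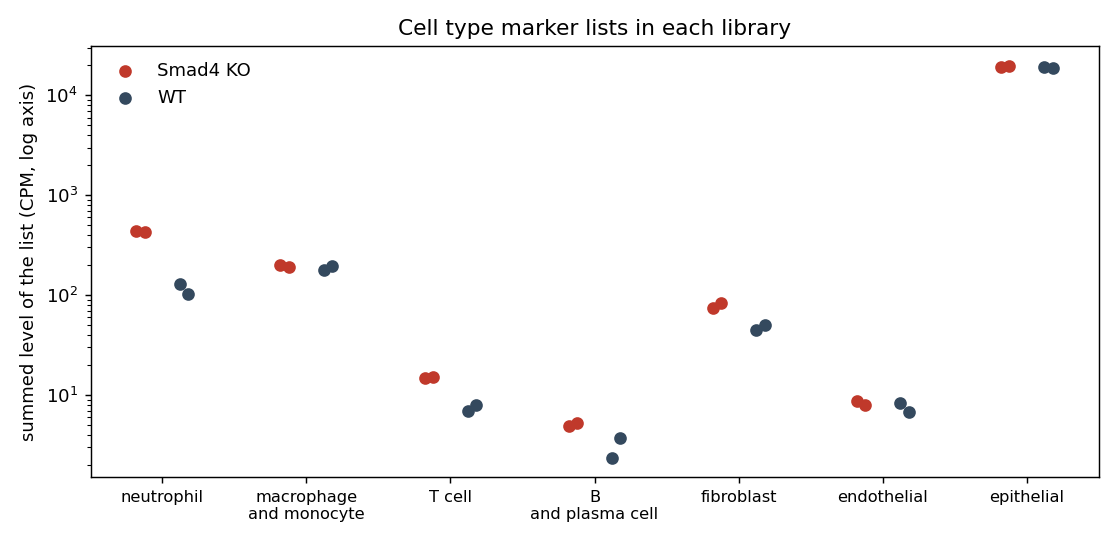
Summed CPM of each list of cell type markers (log axis) in the 2 Smad4 KO libraries (red) and the 2 WT libraries (dark blue). Neutrophil markers sum to 442 and 431 CPM in KO against 130 and 103 CPM in WT, while epithelial markers lie between 18600 and 19900 CPM in all 4 libraries. Most of each neutrophil sum is Ly6g alone, and without it the sums are 112 and 112 CPM in KO against 13.6 and 9.75 CPM in WT.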

How the data were processed

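RNA sequencing of 4 libraries was analysed from the authors' deposited table of raw counts per Ensembl gene, 1 column per library, matched by title, with 0 columns left over. HISAT2 2.1.0, StringTie 1.3.3b, SAMtools 1.9 and FastQC (as 0.19.7) are named, with GRCm38 (mm10) as the build, per the submitters' processing notes. For the counting tool, annotation release, strand and multiply matching reads, the settings were not given in the sources used here. Overlapping genes and similar copies can therefore exchange reads. GENCODE M21 named 31207 of 31227 IDs.

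Of 19618 genes with a count, filterByExpr kept 15838. They were tested with edgeR 4.0.16 (R 4.3.3, TMM, quasi-likelihood F test, genotype as the only term), with Benjamini-Hochberg adjustment over all tested genes. Levels are CPM on TMM-scaled library sizes. SEs are the log2 fold change over the square root of F. A floor is 3 counts over a group and covers counting error only. With 2 libraries against 2, an exact permutation test of one value could not go below 0.333, so none was used. Within each genotype, the counts of both libraries varied beyond counting noise (mean chi-square per gene 31.0 in KO and 37.6 in WT), so none was taken for a duplicate deposit. That does not show that they came from separate mice. The fit was tested on simulated data, with the spread of the real libraries. Large known differences were mostly recovered and small ones mostly missed, and the false share of its calls was above the adjusted p threshold. Far fewer genes were changed in the simulation than were called in the real data. The false share of the real calls may therefore differ and is not known.

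The 10 genes and all lists were chosen with earlier results of these data known. Named were the 10 genes, Smad4, every passing gene of the pathway and target lists with their most abundant genes, the tested TNF ligands, and marker genes that passed or were highest. Rela, Chuk, Ikbkb, Traf3, Nfkbid and Mrc1 were named, and the ratios, the transcript length and the motif chosen, after values were seen. Alternatives were DESeq2 size factors, upper-quartile factors, library totals, no low-count filter, limma-voom (limma 3.58.1), DESeq2 1.42.0, at least 1 CPM in 2 libraries, and leaving out each library. Promoter windows were from RefSeq on GRCm38.p6.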

Additional observations from a re-analysis of the deposited data

How the results depend on the processing

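The count of 4 risen and 0 fallen feedback genes was the same in the 7 alternatives of scaling, filter and test, and 3 to 4 rose when a library was left out, Bcl3 being the one lost. All genes called numbered 2412, and 975 to 2573 when a library was left out (547 to 1504 higher and 425 to 1069 lower), while the DESeq2 Wald test called 3446 (1524 lower against 1014). Without 1 library the risen targets numbered 10 to 17 and the fallen ones 0 to 2, and the risen machinery 5 to 6. Irf1 had log2 fold changes of -0.61 (without KO replicate 2, edgeR adjusted p = 0.0389) to 0.44 without 1 library, against 0.01 with all, and Traf3 passed in the same fit (1.2, edgeR adjusted p = 0.0267), with 42.1 and 16.7 CPM in the KO libraries and 16.8 and 20.0 CPM in WT. The causes were not tested. The median log2 fold change of all genes was -0.04 to 0.01 under the scalings. No paired analysis was possible because the genotypes share only 1 replicate number. Leaving out a library leaves a group with 1, which is then assumed to vary like the other group. The widest interval among the 10 genes was that of Tnfaip3, from 0.851-fold to 2.01-fold, which leaves its direction undetermined.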
